A study of Mus musculus with 6 samples.

Results

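The 10 genes of ileal bile acid and cobalamin uptake described here were followed in RNA-seq libraries of mouse intestinal organoids. They are Slc10a2, Slc51a, Slc51b, Fabp6, Fgf15, Nr1h4, Nr0b2, Cubn, Amn and Tcn2, which is 10 of the 24956 rows of the expression table. They were found by gene symbol, and all 10 were present. The group had been chosen by function with the measured contrast between media already known, so its differences between media are described without a test. The study compared low glutamine medium (3 libraries) with control medium (3 libraries). Every organoid carried the Apc Min genotype, a truncating allele of the Wnt pathway brake Apc, so the controls are mutant too and no wild-type organoids are compared here. The labels call the samples primary cells grown in vitro. The sources used here do not give the glutamine concentration, the time in it, the animals or the segment of intestine. The design text calls the replicates biological without saying whether they came from separate animals or cultures, so a p-value here speaks only for the spread among these 6 libraries, which may be technical.

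Bile acids are made in the liver, released into the gut and reclaimed mainly by enterocytes of the ileum. Slc10a2 (ASBT) takes them in with sodium at the brush border, Fabp6 binds them in the cytosol, and the Slc51a and Slc51b subunits (OST alpha and OST beta) form the exporter of the basolateral membrane. Inside the cell they activate the nuclear receptor FXR, encoded by Nr1h4. FXR induces Nr0b2 (SHP, a repressor) and Fgf15, a hormone that lowers bile acid synthesis in the liver. The ileum also absorbs cobalamin, vitamin B12. Gastric intrinsic factor (Cblif) carries the vitamin to a receptor of cubilin (Cubn) and amnionless (Amn), and transcobalamin (Tcn2) carries it onward in the blood.

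Promoters are shown because all 10 members had the lower mean in low glutamine, although Fabp6, Fgf15 and Nr0b2 were near the limit of detection, as given below. That contrast was known when the members were chosen, and any part of the promoters in it was not tested. RefSeq windows on GRCm38.p6, the mm10 build, run from 250 bases before a start site of the gene to 50 after it and matched 8 of the 10 members, the others being Fgf15 and Tcn2. Those of 4 members are printed 5′ to 3′ on the gene's strand, namely the uptake carrier, the 2 exporter subunits and the cytosolic binding protein. Capitals mark every match, on either strand, to AGGTCA (the hexamer bound by many nuclear receptors), AGGTNANTNACCT (the hexamer, loosened at 1 base, as an inverted repeat with 1 base between, the layout FXR binds) or GATAA (the core bound by GATA factors). No match overlaps another in these windows.
Slc10a2, chr8:5105238-5105537, minus strand: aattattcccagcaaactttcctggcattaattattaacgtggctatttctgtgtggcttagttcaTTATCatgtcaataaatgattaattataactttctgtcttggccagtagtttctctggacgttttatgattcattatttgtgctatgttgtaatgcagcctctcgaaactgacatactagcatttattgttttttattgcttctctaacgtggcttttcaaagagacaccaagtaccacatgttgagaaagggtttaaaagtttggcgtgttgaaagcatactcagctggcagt
Slc51a, chr16:32487830-32488129, minus strand: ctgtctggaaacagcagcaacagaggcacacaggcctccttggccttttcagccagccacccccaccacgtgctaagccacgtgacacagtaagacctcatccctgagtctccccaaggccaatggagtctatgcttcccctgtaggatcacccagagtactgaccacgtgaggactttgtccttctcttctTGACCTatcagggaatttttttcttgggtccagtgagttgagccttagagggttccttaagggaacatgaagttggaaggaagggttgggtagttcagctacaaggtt
Slc51b, chr9:65422724-65423023, minus strand: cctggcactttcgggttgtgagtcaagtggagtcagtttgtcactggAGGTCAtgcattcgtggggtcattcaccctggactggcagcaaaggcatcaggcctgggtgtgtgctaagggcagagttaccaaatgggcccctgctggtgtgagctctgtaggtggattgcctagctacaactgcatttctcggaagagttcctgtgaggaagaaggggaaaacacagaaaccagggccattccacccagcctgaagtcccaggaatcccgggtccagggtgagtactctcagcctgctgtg
Fabp6, chr11:43601513-43601812, minus strand: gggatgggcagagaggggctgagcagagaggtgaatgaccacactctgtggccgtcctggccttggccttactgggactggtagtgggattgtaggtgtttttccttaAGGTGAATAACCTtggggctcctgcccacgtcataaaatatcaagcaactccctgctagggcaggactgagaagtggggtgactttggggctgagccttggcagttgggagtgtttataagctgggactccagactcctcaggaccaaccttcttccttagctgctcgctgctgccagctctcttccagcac

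The FXR-type repeat was found in the Fabp6 window, as AGGTGAATAACCT from position -142 relative to the start site, and in no other member's window. Over all 32851 RefSeq promoter windows, 0.0213% held it. AGGTCA occurred in the windows of Slc51a (-58), Slc51b (-203) and Nr1h4 (-214), 3 of 8 against 16.3% of all windows. GATAA occurred in those of Slc10a2 (-184) and Nr1h4 (-131), 2 of 8 against 25.4%. The Nr1h4 window, chr10:89506609-89506908, lies at a start site inside the outer bounds of the gene given below, and its positions are counted from that site. The windows of Nr0b2, Cubn and Amn held no match. GC content ranged from 36.0% in the Slc10a2 window to 62.3% in that of Amn. A match is a stretch of letters and not a shown binding site.

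The libraries need 1 remark before the values. Estimated depths were 28.3 to 34.1 M reads in low glutamine libraries and 24.3 to 35.3 M reads in control libraries, so that a transcript of 1 kilobase at 1 RPKM (reads per kilobase of transcript, scaled to library depth) rests on 24.3 to 35.3 reads. The media coincided with a sex-linked difference. Xist, the RNA of the inactive X chromosome, averaged 0.0286 ± 0.00577 RPKM in low glutamine and 87.3 ± 3.78 RPKM in control (SD, n = 3 each). The Y-linked Eif2s3y averaged 27.7 ± 3.25 RPKM in low glutamine libraries and was listed at 0 in every control library. The groups thus seem to come from animals of different sex, and so from different animals, which the labels do not state. Medium, sex and animal of origin coincide in all 6 libraries and cannot be told apart in any result below. Epithelial identity was clear in both groups, with all 8 epithelial markers (Epcam, Cdh1, Cdx1, Cdx2, Vil1, Krt8, Krt18, Krt19) above 1 RPKM in every library. All 7 immune and all 4 endothelial markers stayed under 1 RPKM in every library. So did 7 of 8 stromal markers, with Col3a1 listed at 0 throughout and Vim at 11.5 ± 1.08 RPKM in low glutamine and 3.29 ± 0.406 RPKM in control. Of 6 hepatocyte markers 5 stayed under 1 RPKM, and Cyp2e1 measured 8.05 ± 0.310 RPKM in low glutamine and 1.41 ± 0.180 RPKM in control. Of 5 kidney proximal tubule markers, checked because cubilin and amnionless also serve that tissue, 4 stayed under 1 RPKM and the water channel Aqp1 measured 133.6 ± 2.30 and 133.0 ± 6.25 RPKM in low glutamine and control.

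All 10 members had the lower mean in low glutamine, and in 8 of them the 3 low glutamine values lay wholly below the 3 control values. Levels in low glutamine came to 2.13% (Cubn) to 48.5% (Tcn2) of control among the 7 members whose 6 libraries averaged 1 RPKM or more. The remaining members, Fabp6, Fgf15 and Nr0b2, were near the limit of detection in both media. In a fit across all genes (limma on log2(RPKM + 1), Benjamini-Hochberg adjusted p under 0.05), those 7 members were called lower, where 30.3% of the 11082 genes tested were called lower and 36.1% higher. Groups did not overlap, with low glutamine below, for 31.3% of the genes tested. Nothing is read from these counts, because the contrast was known when the members were chosen and because 4 of the 7 (Slc10a2, Slc51a, Slc51b and Cubn) reached the 1 RPKM limit through their control values. In bulk RNA, fewer cells of a type and less RNA per cell cannot be told apart. Of the 20 general enterocyte markers, 16 were lower and 4 higher in the same libraries, as given below.

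**Figure D1:**
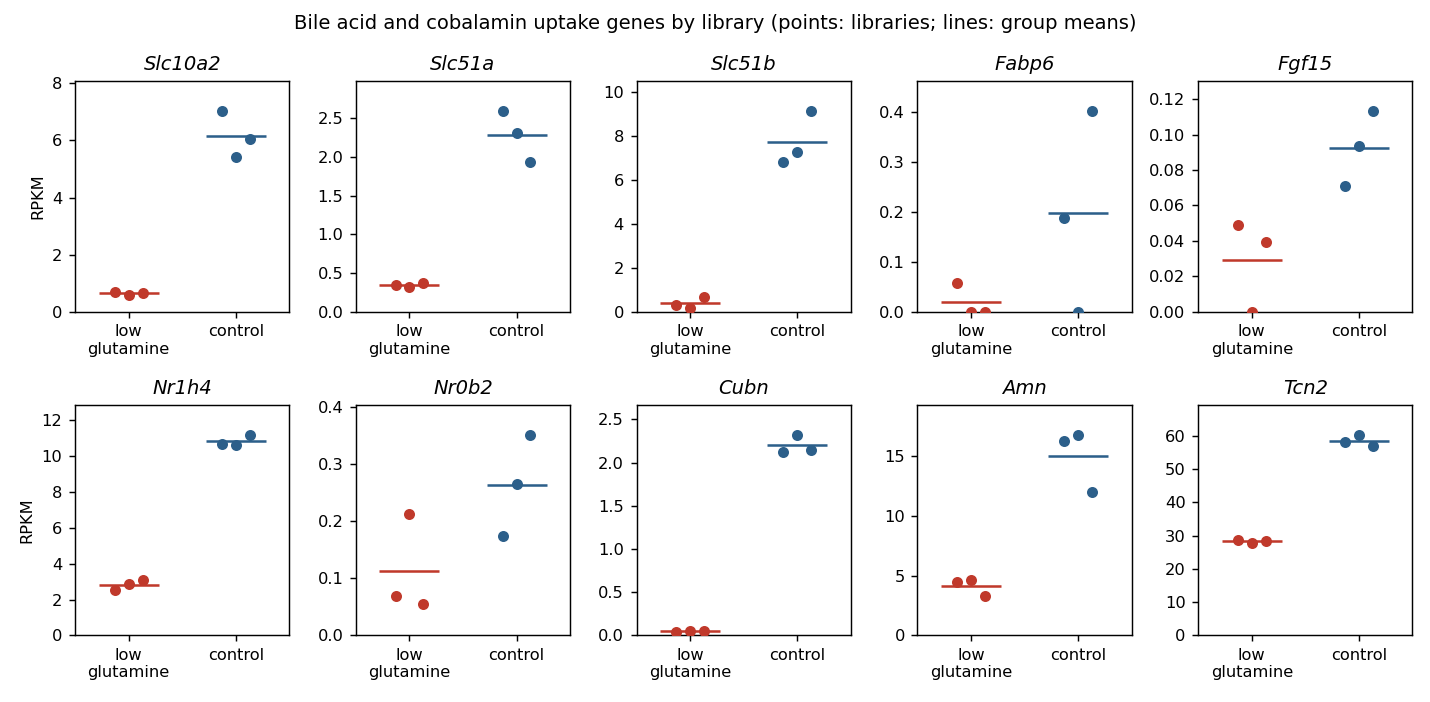
RPKM (vertical axes, each from 0) of the 10 members in the 3 low glutamine libraries (red, left) and the 3 control libraries (blue, right), with lines at group means. The groups are apart in 8 panels and overlap in those of Fabp6 and Nr0b2, and the scales show how low Fabp6, Fgf15 and Nr0b2 were.

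Slc10a2, the carrier that takes up bile acids (chromosome 8, 5083219 to 5105287), measured 0.676, 0.594 and 0.649 RPKM in low glutamine libraries, against 7.03, 5.42 and 6.04 RPKM in control libraries. The control mean was 9.64 times the low glutamine mean, 0.640 ± 0.0416 against 6.16 ± 0.809 RPKM (SD, n = 3 each). On the log2(RPKM + 1) scale, which compresses changes of low genes, the difference was -2.12. The low glutamine libraries lay closer together than the control libraries, where replicate 1 was highest.

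The exporter subunit Slc51a (chromosome 16, 32475578 to 32487879) measured 0.343, 0.315 and 0.367 RPKM in low glutamine, against 2.59, 2.31 and 1.94 RPKM in control. Its log2 difference was -1.28. Its exons share 567 bases with Pcyt1a on the opposite strand, a gene at 10.1 RPKM in low glutamine and 18.8 RPKM in control. Whether the counting used strand is not given in the sources used here, so reads of the pair may be mixed and this value is uncertain.

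Slc51b, the partner subunit without which the exporter does not reach the membrane (chromosome 9, 65412753 to 65422773), stood at 0.301, 0.187 and 0.653 RPKM in low glutamine, against 6.82, 7.29 and 9.14 RPKM in control. This was a log2 difference of -2.67, the largest of the 10 on that scale. Replicate 3 was the highest library in both groups. Rounded to whole reads, the low glutamine values amount to about 7, 4 and 13 reads and the control values to about 150, 182 and 157. Its exons share 91 bases with Rasl12 on the opposite strand, a gene at 0.00870 RPKM in low glutamine and 0.137 RPKM in control. The low glutamine level therefore carries wide counting error, and its spread between libraries was 63.9% of its mean, against 15.8% in control.

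The ratio of Slc51b to Slc51a, both per length, was 0.879, 0.593 and 1.78 in low glutamine libraries, against 2.63, 3.16 and 4.72 in control libraries. Slc51b exceeded Slc51a in 1 of 3 low glutamine libraries and in all 3 control libraries. The low glutamine ratios rest on the few Slc51b reads given above, and both groups' ratios on the uncertain Slc51a value. The uptake carrier and the exporter subunit Slc51a kept a closer ratio, with Slc10a2 over Slc51a at 1.88 ± 0.101 in low glutamine and 2.73 ± 0.384 in control.

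Fabp6, the cytosolic bile acid binding protein and an abundant transcript of ileal enterocytes (chromosome 11, 43596040 to 43601562), was barely detected in either medium. It measured 0.0576, 0 and 0 RPKM in low glutamine, against 0.188, 0 and 0.401 RPKM in control. These are about 1, 0 and 0 reads in low glutamine and about 3, 0 and 5 reads in control. The groups overlap at 0, and no fold is given. Its relative Fabp1, the fatty acid and bile acid binding protein of proximal enterocytes and liver, was at 73.9 ± 9.95 RPKM in low glutamine and 828 ± 88.9 RPKM in control.

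FXR's own gene, Nr1h4 (chromosome 10, 89454234 to 89533645), was well measured in every library. It stood at 2.52, 2.88 and 3.09 RPKM in low glutamine, against 10.7, 10.6 and 11.2 RPKM in control. The difference was -1.63 on the log2 scale and the control mean was 3.82 times the low glutamine mean. The 3 control libraries varied by 2.92% of their mean and did not approach the low glutamine values.

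Fgf15 and Nr0b2, both induced by FXR, were close to 0 in both media. The hormone Fgf15 (chromosome 7, 144896532 to 144900953) measured 0.0488, 0 and 0.0392 RPKM in low glutamine, against 0.0709, 0.0938 and 0.113 RPKM in control, about 3, 0 and 2 reads against about 4, 6 and 5. The values do not overlap, but they rest on at most 6 reads in a library, and 761 bases of exon are shared with Gm26793 on the opposite strand, which was not analysed here. The repressor Nr0b2 (chromosome 4, 133553376 to 133556686) measured 0.0688, 0.213 and 0.0552 RPKM in low glutamine, against 0.175, 0.264 and 0.351 RPKM in control. Low glutamine replicate 2 lay above control replicate 1, so the groups overlap. Slc51a and Slc51b, which FXR also induces, averaged 2.28 and 7.75 RPKM in control.

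Cubn, the large peripheral receptor that binds intrinsic factor with its vitamin (chromosome 2, 13276338 to 13491876), measured 0.0363, 0.0483 and 0.0563 RPKM in low glutamine, against 2.13, 2.32 and 2.15 RPKM in control. The control mean was 46.9 times the low glutamine mean, the widest ratio of the 7 better measured members, while the log2(RPKM + 1) difference was -1.61 because the gene is low. The transcript is long, so the values amount to about 14, 18 and 18 reads in low glutamine and about 745, 923 and 589 reads in control. Its exons share 368 bases with Gm13270 on the opposite strand, which was not analysed here.

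Amn, the membrane anchor of the same receptor (chromosome 12, 111271096 to 111276426), measured 4.46, 4.59 and 3.27 RPKM in low glutamine, against 16.3, 16.8 and 12.0 RPKM in control. The log2 difference was -1.64, and replicate 3 was the lowest library in both groups. The ratio of Amn to Cubn was 123, 95.1 and 58.1 in low glutamine libraries and 7.65, 7.21 and 5.58 in control libraries. The subunits of the receptor were thus lower together, with a wider gap for Cubn.

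Tcn2, the plasma carrier that delivers cobalamin to cells (chromosome 11, 3917077 to 3932078), was the most abundant member. It measured 28.7, 27.8 and 28.4 RPKM in low glutamine, against 58.1, 60.3 and 56.9 RPKM in control, a log2 difference of -1.02 with little spread within either group.

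By level, the low glutamine order was Tcn2, Amn, Nr1h4, Slc10a2, Slc51b, Slc51a, Nr0b2, Cubn, Fgf15 and Fabp6. Slc10a2 overlapped Slc51b and Slc51b overlapped Slc51a there, and from Nr0b2 down each gene overlapped the next. The control order was Tcn2, Amn, Nr1h4, Slc51b, Slc10a2, Slc51a, Cubn, Nr0b2, Fabp6 and Fgf15, where Slc51b and Slc10a2, Slc51a and Cubn, Nr0b2 and Fabp6, and Fabp6 and Fgf15 overlapped.

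Other carriers of bile acids and sterols were mostly lower too. Of 12 listed, 7 were tested, of which 5 fell and 1 rose, with a median log2 fold change of -1.79 against 0.03 over all genes tested. Of all genes tested, 30.3% were called lower and 36.1% higher. Fabp1 fell by 3.47 (limma, adjusted p = 1.8e-11). The sterol exporter subunits Abcg5 and Abcg8, which send sterols back to the gut lumen, had log2 fold changes of -2.76 and -1.79 and both passed. The organic anion carrier Slco2b1 fell to 0.817 ± 0.0887 RPKM in low glutamine, against 6.34 ± 0.458 RPKM in control. Slco2b1 reached the 1 RPKM limit through its control values, so nothing is read from its call. The apical conjugate exporter Abcc2 fell by 1.48 (adjusted p = 4.3e-10). Abcc4, an exporter of the basolateral side in hepatocytes, rose to 7.34 ± 0.445 RPKM in low glutamine, against 3.03 ± 0.0468 RPKM in control. Its relative Abcc3 did not pass, at 16.4 ± 0.847 and 17.6 ± 0.352 RPKM in low glutamine and control, and was called lower with median-of-ratios scaling and without low glutamine replicate 3. The hepatocyte carriers Slc10a1 and Abcb11 were under 1 RPKM in every library, and Slco1a1, Slco1a4 and Slco1b2 were listed at 0.

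Of 18 listed receptors and factors of bile acid sensing 15 were tested, of which 9 fell, 1 rose and 5 did not pass. Their median log2 fold change was -0.31. Among all genes tested, 30.3% were called lower and 36.1% higher. Rxra, the usual partner of FXR, fell to 10.6 ± 0.543 RPKM in low glutamine, against 18.4 ± 0.507 RPKM in control (limma, difference of -0.74 ± 0.05 SE on the log2 scale, adjusted p = 1.2e-07). The xenobiotic receptor Nr1i3 (CAR) fell by 2.10 and Nr5a2 (LRH-1) by 1.01. The nuclear receptor Hnf4g fell to 10.95 ± 0.277 RPKM in low glutamine, against 40.6 ± 2.17 RPKM in control. Nr1h3, the liver X receptor alpha, fell by 0.96 and Nr1i2 (PXR) by 0.55. Hnf4a stood at 128 ± 4.84 RPKM in low glutamine and 181 ± 4.59 RPKM in control (adjusted p = 9.1e-06).

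Several factors of the same list differed little. Gata4, a GATA factor of the proximal small intestine that in mice represses ileal genes including Slc10a2, was at 41.2 ± 0.335 RPKM in low glutamine and 42.0 ± 3.62 RPKM in control (difference of -0.02 ± 0.06 SE, limma adjusted p = 0.76, and 0.1 to 0.92 over the alternatives, where its sign varied). Rxrb, Vdr and Malrd1 did not pass, and the sign of each varied over the alternatives. Vdr was called higher with a common RPKM sum and with quantile normalization, and Rxrb and Malrd1 were called lower with median-of-ratios scaling. Gata6 fell by 0.31, a call lost with libraries rescaled to a common sum (adjusted p = 0.081, and 1.6e-06 to 0.081 over the alternatives). Fgfr4, the receptor that FGF15 acts on in hepatocytes, rose to 8.45 ± 0.249 RPKM in low glutamine, against 2.47 ± 0.0408 RPKM in control (adjusted p = 1.6e-10).

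**Figure D2:**
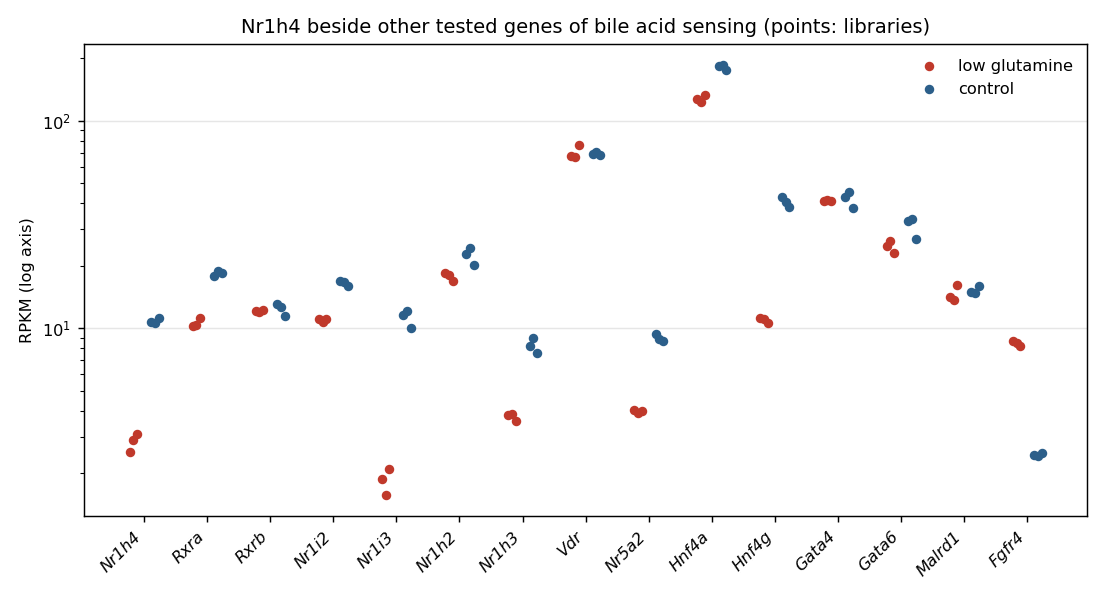
RPKM on a log axis of Nr1h4 and of other tested genes of bile acid sensing, with low glutamine libraries (red) left of control libraries (blue). Nr1h4, Nr1i3 and Hnf4g show wide gaps downward, Fgfr4 a gap upward, and Gata4, Vdr and Rxrb overlap.

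Among 14 other genes listed as FXR targets, 8 were tested, of which 5 fell, 1 rose and 2 did not pass (median -0.73). The shares over all genes tested were 30.3% called lower and 36.1% called higher. The cytochrome Cyp3a11 fell by 3.26 on the log2 scale, and the lipoprotein component Apoc2 fell by 3.09. Cyp3a11 has close relatives whose reads may be mixed with its own. The fatty acid receptor Ppara fell to 2.63 ± 0.158 RPKM in low glutamine, against 10.01 ± 0.171 RPKM in control, and the cytokine Il18 to 0.959 ± 0.144 RPKM, against 3.59 ± 0.453 RPKM. Most of these also respond to other receptors, and FXR activity itself was not measured. Il18 reached the 1 RPKM limit through its control values, so nothing is read from its call. The surface proteoglycan Sdc1 rose to 70.3 ± 3.12 RPKM in low glutamine, against 56.7 ± 1.47 RPKM in control, and Mafg and Insig2 did not pass. The tested enzymes of bile acid synthesis differed by small amounts. Of 14, 5 were tested, of which 3 fell (Scp2 by 0.39, Acox2 by 0.39 and Amacr by 0.34), Hsd3b7 rose by 0.21 and Cyp39a1 did not pass. The other 9 were under 1 RPKM in every library. Among those, Baat, Slc27a5 and Akr1d1 were lower in low glutamine without overlap, and Cyp7b1 was higher without overlap. The Hsd3b7 call was lost with median-of-ratios scaling (adjusted p = 0.059, and 0.00053 to 0.059 over the alternatives). The hepatic enzymes Cyp7a1 and Cyp8b1 were listed at 0 in all 6 libraries.

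Along the rest of the cobalamin route the directions were mixed. Of 15 listed genes 13 were tested, of which 6 rose, 4 fell and 3 did not pass, with a median log2 fold change of 0.11. Over all genes tested, 36.1% were called higher and 30.3% lower. Cblif, the intrinsic factor that Cubn binds, rose to 2.95, 2.87 and 3.56 RPKM in low glutamine, against 0.0209, 0.0184 and 0.0267 RPKM in control (limma, difference of 2.01 ± 0.08 SE on the log2 scale, adjusted p = 2.5e-10). This is about 155, 145 and 155 reads in low glutamine libraries and about 1 read in each control library. By these values Cblif lay above Cubn in every low glutamine library and below it in every control library. Cblif reached the 1 RPKM limit through its low glutamine values and Cubn through its control values, so nothing is read from their calls.

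Genes of the later steps moved in both directions. Cd320, the cell receptor for transcobalamin, rose to 6.62 ± 0.375 RPKM in low glutamine, against 3.33 ± 0.297 RPKM in control (adjusted p = 2.6e-07). The ratio of Tcn2 to Cd320 was 4.29 ± 0.179 in low glutamine and 17.6 ± 1.16 in control. Abcc1, which exports cobalamin across the basolateral membrane, rose by 0.83, and the receptor chaperone Lrpap1 by 0.63. Abcd4, which moves cobalamin out of the lysosome, fell to 2.95 ± 0.189 RPKM in low glutamine, against 10.5 ± 0.836 RPKM in control, while its lysosomal partner Lmbrd1 fell by 0.30. The cofactor processing enzyme Mmachc rose by 0.28 and the methionine synthase Mtr by 0.30, and Mmaa fell by 0.34. The Mtr call was lost with quantile normalization (adjusted p = 0.11, and 4.9e-05 to 0.11 over the alternatives). Mmut, the cobalamin-dependent mutase, fell by 0.15 (adjusted p = 0.038), a call lost in 6 of 13 alternatives with an adjusted p up to 0.57. Lrp2, megalin, the partner of cubilin in kidney, was under 1 RPKM in every library.

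**Figure D3:**
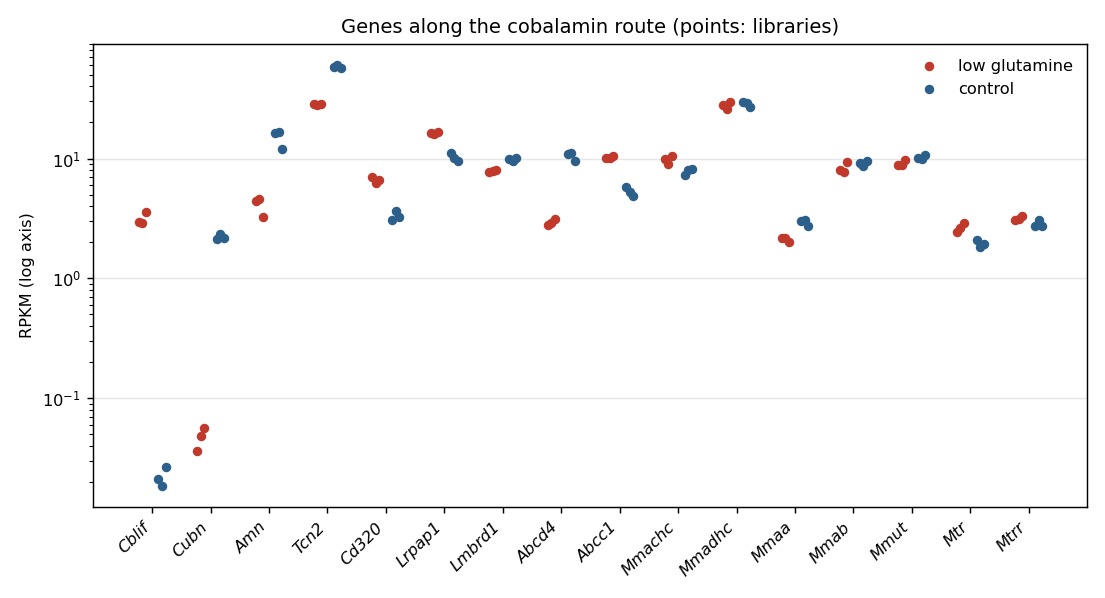
RPKM on a log axis of Cubn, Amn and Tcn2 and of the 13 tested genes of the remaining cobalamin route, with low glutamine libraries (red) left of control libraries (blue). Cblif and Cubn trade places between the media, while most later genes lie within a narrow range.

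The members were set beside the general enterocyte markers and beside genes of proximal absorption, to see where they stood in the epithelium. Of 20 enterocyte markers 16 fell and 4 rose, with a median log2 fold change of -2.39. Beside this, 30.3% of all genes tested were called lower and 36.1% higher. The apolipoproteins Apoa4 and Apoa1 fell by 3.57 and 3.15, and the disaccharidase Sis fell by 3.38. Slc15a1, among those that fell, reached the 1 RPKM limit through its control values, so nothing is read from its call. The 4 that rose were Anpep (by 1.07), Alpi (0.78), Mep1a (0.35) and Apob (0.28). Anpep stood at 465.5 RPKM in low glutamine and 220.4 RPKM in control. The median over all 10 members, untested ones included, was -1.45. That list holds 3 genes too low to move on this scale, which also compresses the differences of Slc10a2, Slc51a, Slc51b and Cubn. The medians are therefore not like for like, and no difference between the lists was tested. Summed over the 20 markers, RPKM was 904 to 991 in low glutamine libraries and 2455 to 2603 in control libraries. Their part in the members' lower levels was not tested.

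Proximal absorption genes showed no shared direction. Of 10, 9 were tested, of which 4 fell, 2 rose and 3 did not pass (median -0.03). The shares called over all genes tested were 30.3% lower and 36.1% higher. Slc40a1 (ferroportin, the iron exporter) rose to 16.1 ± 1.49 RPKM in low glutamine, against 0.306 ± 0.0820 RPKM in control, and the factor Onecut2 rose by 1.77. The iron importer Slc11a2 fell by 2.71, lactase (Lct) fell by 3.51 and the folate carrier Slc46a1 fell by 1.65. Slc40a1 reached the 1 RPKM limit through its low glutamine values and Lct through its control values, so nothing is read from their calls. The iron reductase Cybrd1 and the calcium binding protein S100g did not pass. S100g was at 35.7 ± 3.18 and 36.4 ± 2.17 RPKM in low glutamine and control.

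**Figure D4:**
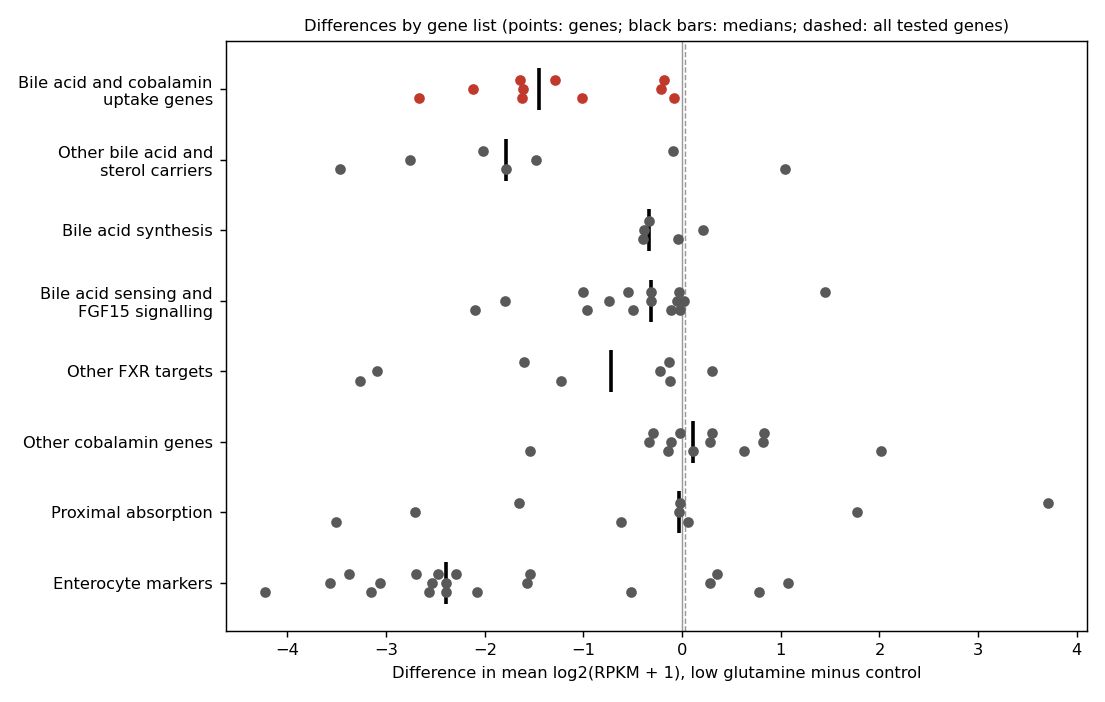
Difference in mean log2(RPKM + 1), low glutamine minus control, for the 10 members (red, all of them) and for the tested genes of each further list (grey), with black bars at medians and a dashed line at the median of all tested genes (0.03). Members run from -2.67 to -0.09, bile acid carriers and enterocyte markers lie mostly to the left, and other cobalamin genes straddle 0.

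The genes with the most similar profiles were named for each of the 7 better measured members by the smallest Euclidean distance between log2(RPKM + 1) profiles over the 6 libraries, each centred on its control mean. Nearest to Slc10a2 were Clec2e, Sprr2a3 and Oasl1, and nearest to Slc51a were Mir22hg, Crym and Tmem86b. Sprr2a3 has near-identical copies and its value is uncertain. Slc51b had Nts, Gda and Mttp beside it, at larger distances (0.35 to 0.38) than the nearest genes of any other member. Nr1h4 was closest to Ano6, Cyp2c68 and Reg3a, Cubn to Mfsd4b2, Ank and Pm20d1, Amn to Tmem106a, Slc39a5 and Fam213b, and Tcn2 to Acss2, B4galnt1 and Cpox. The shortest distance was 0.04, between Cubn and Mfsd4b2, which stood at 0.196 RPKM in low glutamine and 2.66 RPKM in control. With 2 groups of libraries this likeness mostly reflects the size of the difference between media. No member was among the nearest genes of another.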

How the data were processed

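RNA of 6 organoid libraries, 3 in low glutamine and 3 in control medium, was measured with TruSeq kits, per the labels' protocols. The deposited RPKM values were made by the authors, 1 column per library. CASAVA 1.8, HISAT2 2.0.4, Partek and mm10 are named, with no role or order, per the submitters' processing notes. Annotation, counting rule and strandedness are not given in the sources used here.

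Depth was estimated from low values of single-exon GENCODE M21 genes. The read number taken was the one at which the largest share of values were whole reads within 0.02. That share was 46.9% to 54.5%, against a median share of 15.8% to 19.6% over the depths tried. Approximate reads use the longest GENCODE transcript, which may not be the one the authors used, and cover counting error only.

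RPKM values are not counts, so limma 3.58.1 (R 4.3.3, variance trend) was fitted to log2(RPKM + 1) for the 11082 of 24956 rows with a mean of at least 1 RPKM, two-sided, with Benjamini-Hochberg adjustment over all rows tested and a threshold of 0.05, after the code was tested on simulated data. Plots were drawn with matplotlib 3.10.9, and tables made with pandas 2.3.3 in Python 3.11.15. Coordinates are RefSeq gene bounds on GRCm38.p6, 1-based.

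The members and lists were chosen with earlier results of these data known. Named from each list were up to 4 genes with the largest change among calls without overlap, a set of key regulators and receptors, small remainders, and 3 nearest profiles per member. Other list genes named with values were chosen after these were seen. Some list genes that the rule names are not reported here.

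Deviations from group means correlated at 0.15, 0.25 and 0.57 between low glutamine and control libraries numbered 1, 2 and 3, above the limit of 0.1 set for pairing, although the first low glutamine library and the second control library correlated more closely, at 0.36. The fit reported above took no account of such pairing, so its p-values ignore it, and a replicate block was run as an alternative only. The alternatives were pseudocounts of 0.1 and 5, no filter on low values, 3 other scalings, the replicate block and leaving out each library.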

Additional observations from a re-analysis of the deposited data

How the results depend on the processing

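All 7 members tested kept their sign in every alternative in which they were tested, and Cubn fell under the 1 RPKM limit without any 1 of the control libraries. The size on the log2 scale moved with the pseudocount, from -0.51 (5) to -3.97 (0.1) for Cubn and from -1.24 to -4.14 for Slc51b. Without a filter on low values, Fgf15 was called lower (-0.09), and Fabp6 and Nr0b2 were tested but not called. Of 62 list genes called, 58 kept their call in every alternative. List counts that moved by over 1.5 times follow. Without the filter, bile acid synthesis had 2 genes higher and 6 lower, bile acid sensing 2 higher and other FXR targets 3 higher. With median-of-ratios scaling, synthesis had 0 higher. Bile acid sensing had 3 higher with a common RPKM sum and 2 with quantile normalization, and 1 to 2 when libraries were left out in turn, the second gene being Klb without any 1 control library. With the replicate block, 7736 genes were called in place of 7361 and the call of Insig2 (lower) was gained, with no other list gene changing its call. Its p-values rest on a spread that limma pooled over all genes, and they set the low ends of the ranges given for Gata6 and Mtr. Over all genes, 54.4% of calls were higher, 69.1% with a common RPKM sum and 42.1% with median-of-ratios scaling. Over all tested genes the median difference was 0.14 with the common sum and 0.03 as reported, so small calls depend on the scaling. Calls of Gata6, Hsd3b7 and Mtr, larger than 0.14, were also lost under another scaling, as given above. Fabp6, Fgf15 and Nr0b2 rest on few reads in both media, and a difference in Fabp6 or Nr0b2 was not detectable at this depth. The low glutamine values of Slc51a, Slc51b and Cubn rest on at most about 31 reads in a library.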

Other observations

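Klb, the co-receptor that FGF15 needs beside Fgfr4, had a mean just under the 1 RPKM limit and was not tested. It measured 1.28, 1.31 and 1.68 RPKM in low glutamine libraries and 0.717, 0.509 and 0.476 RPKM in control libraries, without overlap. The bile acid conjugating enzyme Baat measured 0.0151, 0.0312 and 0.0546 RPKM against 0.296, 0.276 and 0.379 RPKM in control, and Dab2, an adaptor that binds megalin, averaged 0.0132 ± 0.0106 RPKM in low glutamine and 0.129 ± 0.0106 RPKM in control (SD, n = 3 each). In the alternatives that tested them, Klb was called higher in all 5, and Baat and Dab2 were called lower in the fit without a filter. Baat and Dab2 were near the limit of detection in both media and their reads were not estimated, so nothing is read from their calls.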
